A study of Mus musculus with 6 samples.

Results

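The genes described here are 35 listed genes of antioxidant defence, glutathione chemistry and the metabolism of foreign compounds, measured in the fundic gastric mucosa of C57Bl/6Ncr mice aged 3 months. They were taken by gene symbol from the platform annotation, or by the current symbol of the same gene identifier. Of the 35, 32 had at least 1 probe in the table used here, with 60 of its 45281 probes, and Gsr, G6pdx and Prdx6 had none. All 32 had a probe brighter than the median probe, and 54 of the 60 probes passed that filter, of 22640 probes kept in all. They were chosen with their difference between arrays by the number in the array's title in view, so that contrast is described here without a test.

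The study compared mice in which Lasp1, a LIM and SH3 domain protein that binds actin, was deleted with wild type mice of the same strain, 3 arrays of total RNA from each. The labels do not give the deleted allele, the sex or whether each array held a separate mouse, so a p-value here covers only how these samples varied, which may be technical. The array titles carry numbers from 1 to 6. Titles 1 to 3 are knockout replicate 1 and wild type replicates 1 and 2, called the low-numbered arrays below. Titles 4 to 6 are knockout replicate 2, wild type replicate 3 and knockout replicate 3, called the high-numbered arrays. What the number stands for is not given in the labels, and the division after 3 was made with these data known.

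Glutathione is a small peptide with a reactive thiol. Cystine taken up by the Slc7a11 exchanger supplies its cysteine, and glutamate-cysteine ligase (catalytic subunit Gclc, modifier subunit Gclm) followed by glutathione synthetase (Gss) builds it. Glutathione transferases then couple it to reactive compounds, and glutathione peroxidases spend it on peroxides. Many of these genes are targets of the transcription factor NRF2, encoded by Nfe2l2, which the adaptor protein KEAP1 holds at a low level until electrophiles or oxidants modify it. Cyp2b10, by contrast, is best known as a target of the xenobiotic receptor CAR in liver.

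Promoter sequences are shown for 4 genes whose low-numbered and high-numbered arrays did not overlap and whose upstream sequence held a searched motif, because these are regulatory motifs known for this pathway. They come from RefSeq (GRCm38.p6), 5′ to 3′ on the gene's own strand, and end at the base before the annotated start. Slc7a11 is at chr3:50443614-50443863 (minus strand), Gclm at chr3:122245307-122245556, Mgst1 at chr6:138140277-138140526 and Gsta3 at chr1:21240335-21240584 (plus strand). Capitals mark a match on either strand to TGACNNNGC, the core of the antioxidant response element through which NRF2 acts, in Gclm, Mgst1 and Gsta3. In Slc7a11 they mark 2 matches to TGATGCAA, the amino acid response element that the stress factor ATF4 binds in this promoter.
Slc7a11: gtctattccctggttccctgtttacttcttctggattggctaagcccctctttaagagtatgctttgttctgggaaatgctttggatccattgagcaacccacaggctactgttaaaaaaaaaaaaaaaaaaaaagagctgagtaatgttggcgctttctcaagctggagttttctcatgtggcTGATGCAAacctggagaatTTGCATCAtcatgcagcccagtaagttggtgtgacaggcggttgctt
Gclm: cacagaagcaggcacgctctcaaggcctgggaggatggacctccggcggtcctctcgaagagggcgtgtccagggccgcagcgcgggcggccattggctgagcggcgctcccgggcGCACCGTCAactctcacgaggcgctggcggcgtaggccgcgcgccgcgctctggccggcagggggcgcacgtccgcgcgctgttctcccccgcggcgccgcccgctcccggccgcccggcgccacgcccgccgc
Mgst1: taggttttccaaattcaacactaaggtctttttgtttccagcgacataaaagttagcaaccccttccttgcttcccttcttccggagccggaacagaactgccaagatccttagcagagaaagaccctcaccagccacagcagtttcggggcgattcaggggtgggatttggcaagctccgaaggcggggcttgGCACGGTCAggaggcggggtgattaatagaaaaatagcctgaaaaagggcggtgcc
Gsta3: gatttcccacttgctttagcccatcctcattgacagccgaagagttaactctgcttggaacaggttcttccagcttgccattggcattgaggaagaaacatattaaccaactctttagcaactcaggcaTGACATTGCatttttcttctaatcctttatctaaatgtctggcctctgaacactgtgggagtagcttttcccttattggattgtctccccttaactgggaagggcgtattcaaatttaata
The Slc7a11 matches begin 66 and 47 bases before the start, on opposite strands. The TGACNNNGC matches begin 134 bases before the start in Gclm, 56 in Mgst1 and 121 in Gsta3. Promoter windows were found for 29 of the 35 genes, 37 windows in all. TGACNNNGC stood in 8 of these 37 windows and in 10.2% of the 32851 windows of all genes, each read over the 250 bases before the start. The other listed genes with it were Gstm5, Nfe2l2, Prdx1 and Txnrd1, whose low-numbered and high-numbered arrays overlapped, and G6pdx, which had no probe. TGATGCAA stood in 1 of the 37 and in 0.791% of all windows. None of the 4 printed windows held both motifs, and a match describes letters only.

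The arrays differed in tissue content along the same division as these genes. The mucosa's own markers (7 of 7 parietal, 4 of 5 chief, 3 of 4 pit and 2 of 2 mucous neck cell genes had a probe) were measured on all 6 arrays. The parietal sum was 1184967 to 1283081 on the low-numbered and 1152248 to 1367829 on the high-numbered arrays, most of it from the proton pump subunits Atp4a and Atp4b. Of the 7 parietal genes, 2 read higher on every low-numbered array, the dim anion exchanger gene Slc26a7 (1860 to 3433) and the water channel gene Aqp4 (6212 to 16049). The chief cell sum was 904735 to 949995 on the low-numbered and 1031426 to 1082063 on the high-numbered arrays, with Pgc, a pepsinogen gene, lower on every low-numbered array. The part of these marker differences in the results was not tested. Squamous epithelium markers (12 of 12 with a probe) summed to 1048074 on knockout replicate 1 and 618567 on wild type replicate 2, both low-numbered, and to 23656 to 41455 on the other 4 arrays. Pancreatic acinar markers (11 of 12) summed to 6390010 on wild type replicate 3 and 1029520 on knockout replicate 3, both high-numbered, and to 651732 to 689846 elsewhere. Most of the sum on the other 4 arrays came from Clps, which read 513831 to 635559 over all 6. Cpa1, another of these markers, read 449183 on wild type replicate 3, 6865 on knockout replicate 3 and 814 to 993 elsewhere. Smooth muscle markers summed to 103079, 60858 and 233489 on wild type replicates 1 and 2 and knockout replicate 1. They summed to 35213, 60317 and 43940 on wild type replicate 3 and knockout replicates 2 and 3. These sums thus followed the same division without overlap, by 60858 against 60317 at the nearest arrays, and their part in the results was not tested. Only wild type replicate 1 and knockout replicate 2 were low in both squamous and pancreatic transcripts, so values without the other arrays are given beside the main ones. Intensities are linear, scaled by the authors to a median of 1000 on each array, with the background not subtracted. Lasp1 read 177315 to 275068 on the wild type arrays and 88521 to 111002 on the knockout arrays with its brightest probe.

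Across the list, 13 of 32 genes read higher on every low-numbered array than on every high-numbered array, and none read lower on all of them. Over all 11868 named genes with a kept probe, 19.5% were higher without overlap and 3.74% lower. The differences below are log2 values of low-numbered minus high-numbered arrays, each the mean of the difference within wild type and the difference within knockout from limma with both terms in the model. Their median was 0.47 over the 32 genes, 0.21 over named genes and 0.18 over all kept probes. With only probes above the 0.75 quantile of mean intensity it was 0.46 over the 31 genes left and 0.30 over all such probes. Of the 32 genes, 31 were above 0. By this measure 6 genes differed by 1 or more (Cyp2b10, Slc7a11, Sult1a1, Gclc, Aldh3a1 and Mgst1), where 2.42% of named genes did. As the genes were chosen on this contrast, nothing is read from these shares. In bulk tissue, fewer cells of a type and less RNA per cell cannot be told apart.

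**Figure D1:**
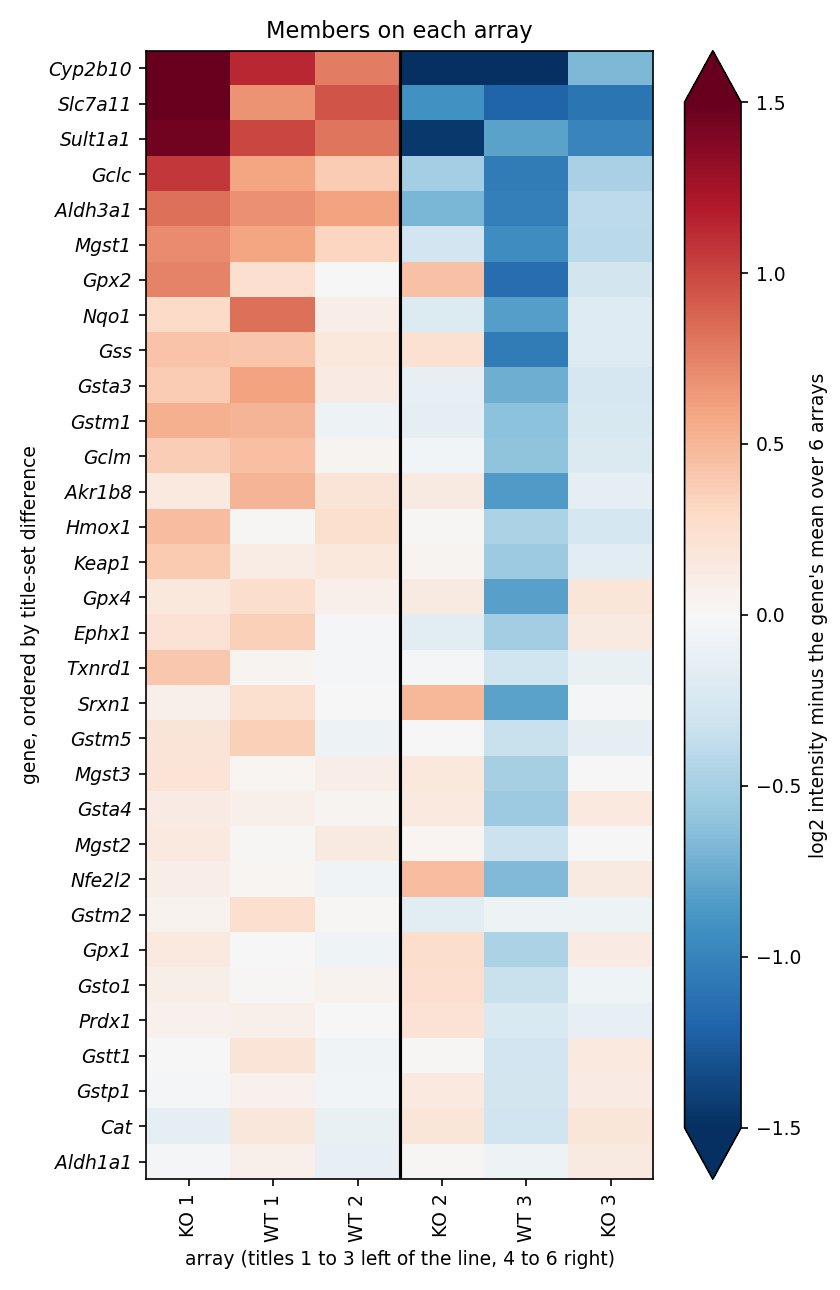
Log2 intensity of each of the 32 measured genes (rows, brightest probe) on the 6 arrays (columns in title order), as the deviation from that gene's mean over the arrays. Red is above and blue below the mean, and colours end at 1.5. The upper rows split at the line between titles 3 and 4, while wild type replicate 3 is the lowest array for 29 of the 32 genes.

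Cystine import and glutathione synthesis held some of the largest differences. Slc7a11, the cystine-glutamate exchanger, read 8459, 10200 and 15826 on wild type replicates 1 and 2 and knockout replicate 1. It read 2294, 2821 and 2464 on wild type replicate 3 and knockout replicates 2 and 3. The lowest low-numbered array thus lay well above the highest high-numbered one, and the difference was 2.30 (SE 0.17), or 4.93-fold. It was 2.02 within wild type and 2.59 within knockout. The gene has 4 kept probes, all without overlap and higher on the low-numbered arrays, with differences from 0.21 for the dimmest (806 to 1129) to the 2.30 above. The dimmer kept probes lie closer to the array median, and the part of unsubtracted background in their smaller differences was not tested. A further probe, not kept, stayed near that median on all arrays (879 to 1000).

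Gclc, the catalytic subunit of the enzyme that limits glutathione synthesis, read 16065, 13850 and 22196 on the low-numbered arrays, in the same order as above. It read 5158, 7459 and 7604 on the high-numbered arrays. Its difference of 1.55 (SE 0.12, 2.92-fold) was nearly the same in wild type (1.53) and knockout (1.56). Gclm, its modifier subunit, read 29067, 22016 and 27492 against 14026, 20673 and 18401. These groups did not overlap, but the gap between the nearest arrays was small and the difference was 0.67 (SE 0.16). Gss, which adds glycine in the last step, read 10450, 8755 and 10512 against 3796, 9193 and 6875. Its groups overlapped through knockout replicate 2, and its difference of 0.87 (SE 0.24) was 1.33 within wild type and 0.40 within knockout. Among its 4 kept probes the differences were 0.30 to 0.87.

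**Figure D2:**
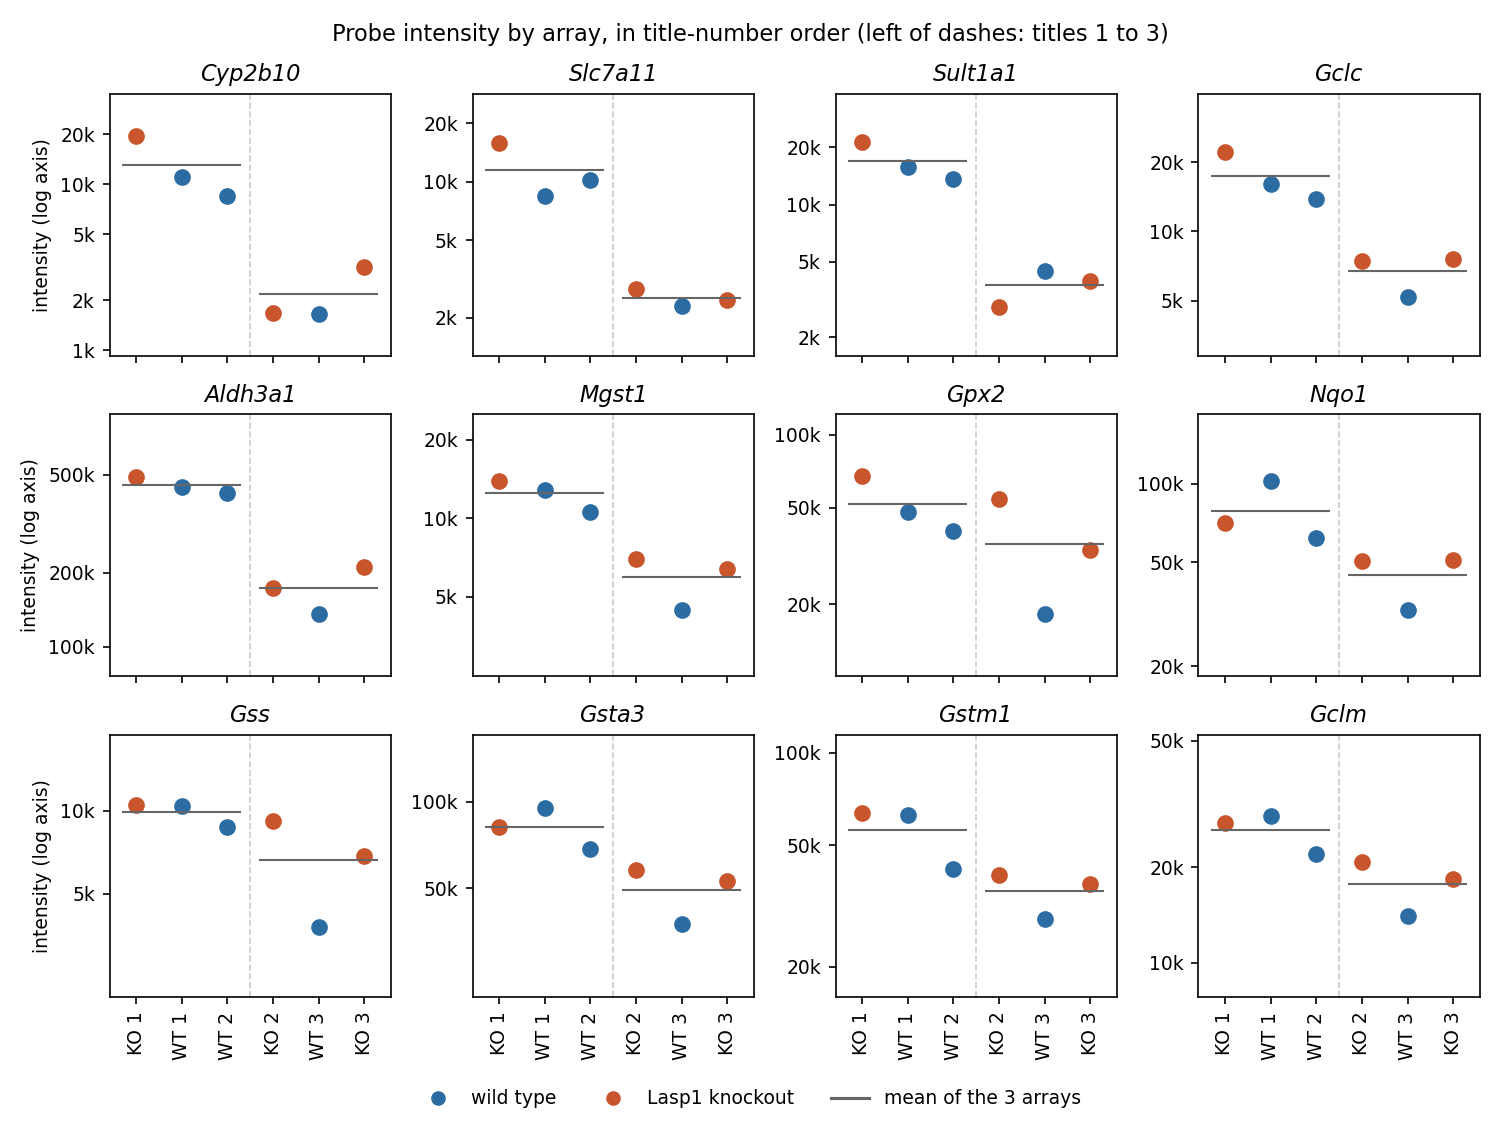
Probe intensity on a log axis for the 12 genes with the largest title-set differences, 1 panel each. Circles are single arrays in title order (blue wild type, orange knockout) and grey lines are the mean of each set of 3. For Cyp2b10, Slc7a11, Sult1a1, Gclc, Aldh3a1 and Mgst1 every array left of the dashes lies above every array to the right, while Gpx2 and Gss overlap.

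Genes of foreign compound and aldehyde metabolism held the single largest difference of the list, with a median of 0.89 over the 7 measured, against 1.21 over the 4 of cystine import and glutathione synthesis. Cyp2b10, a cytochrome P450 monooxygenase, read 10995, 8527 and 19514 on wild type replicates 1 and 2 and knockout replicate 1, and 1661, 1677 and 3163 on wild type replicate 3 and knockout replicates 2 and 3. Its difference was 2.81 (SE 0.27, 7.03-fold), at 2.54 within wild type and 3.08 within knockout. Its other probe stayed near the array median on all arrays (871 to 994) and was not kept. Sult1a1, a phenol sulfotransferase, read 15666, 13647 and 21318 against 4498, 2876 and 3948, a difference of 2.18 (SE 0.24, 4.54-fold). Its lowest low-numbered array was thus well clear of the highest high-numbered one. It was larger within knockout (2.66) than within wild type (1.70), though the interaction of the sets with genotype was not past the threshold (limma adjusted p = 0.201).

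Aldh3a1, an aldehyde dehydrogenase known to be abundant in stomach and cornea, read 447956, 421142 and 491090 on the low-numbered arrays and 136493, 172779 and 210980 on the high-numbered ones, a difference of 1.52 (SE 0.14, 2.86-fold). The 2 sets were far apart, and the genotypes differed by 0.18 within the low-numbered and 0.48 within the high-numbered arrays, knockout higher in both. Nqo1, the quinone reductase often used as a readout of NRF2, read 103073, 62150 and 71085 against 32823, 50512 and 50869. The sets did not overlap, and the difference was 0.89 (SE 0.25) for this probe and 0.74 for its other probe. Akr1b8, an aldo-keto reductase, also had sets without overlap (0.67, SE 0.25), but by 55719 against 55511 at the nearest arrays. Ephx1, the microsomal epoxide hydrolase, differed by 0.46 with overlap, and Aldh1a1, a retinal dehydrogenase, read 63609 to 76207 over all 6 arrays with a difference of -0.03.

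Among the listed glutathione transferases, Mgst1, a microsomal enzyme, had the largest difference. It read 12790, 10606 and 13912 on the low-numbered arrays and 4464, 6984 and 6420 on the high-numbered arrays, without overlap. Its difference was 1.22 (SE 0.14, 2.33-fold), and 1.20 for its other probe. Mgst2 and Mgst3, at means of 251842 to 291245, differed by 0.27 and 0.34 and overlapped. Of the 8 cytosolic transferases, 3 had sets without overlap. Gsta3, an alpha class enzyme, read 95055, 68452 and 81720 against 37607, 57661 and 52702, a difference of 0.83 (SE 0.19). Gstm1, of the mu class, read 62583, 41766 and 63759 against 28730, 40063 and 37305, a difference of 0.78 (SE 0.18), with wild type replicate 2 barely above knockout replicate 2. Gstm2 differed by only 0.20. Gsta4, Gstm5, Gstp1, Gstt1 and Gsto1 overlapped, with differences of 0.06 to 0.37. Transferases of a class have similar sequences, and whether a probe also binds a relative's transcript was not tested.

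The pi class gene Gstp1 and the peroxiredoxin gene Prdx1 were the genes with kept probes of opposite sign. For Gstp1 the brightest probe read 57913, 53967 and 54379 on the low-numbered arrays and 45842, 61586 and 60543 on the high-numbered ones, and the 3 probes differed by -0.01 to 0.08. For Prdx1 the brightest probe read 191507, 181709 and 190899 against 155620, 211678 and 167049 (difference 0.14), and the dimmer one differed by -0.12. All of these differences were smaller than the range of the high-numbered arrays.

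None of the 7 measured genes of peroxide removal and the thioredoxin system had sets without overlap. Their median difference was 0.38, against 0.24 over the 8 cytosolic and 0.34 over the 3 microsomal transferases. Gpx2, the epithelial glutathione peroxidase of the gut, read 47802, 40045 and 67539 against 18186, 54556 and 33406. Knockout replicate 2 lay within the low-numbered range, and the difference of 0.96 (SE 0.23) was 0.66 without wild type replicate 3. Srxn1, which restores oxidised peroxiredoxins, differed by 0.92 within wild type and by -0.16 within knockout. Gpx1, Gpx4, Cat (catalase) and Txnrd1 (thioredoxin reductase) differed by 0.00 to 0.49. Of the regulators, Nfe2l2 itself read 28595, 27049 and 29980 on the low-numbered arrays and 17777, 38674 and 30832 on the high-numbered arrays, with overlap and a difference of 0.22. Keap1 read 10809, 11132 and 13081 against 6843, 10273 and 8866, a difference of 0.57 (SE 0.13), and the sets did not overlap for each of its 4 kept probes. Hmox1, the inducible haem oxygenase, read 1800 to 3445 and differed by 0.59 with overlap.

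**Figure D3:**
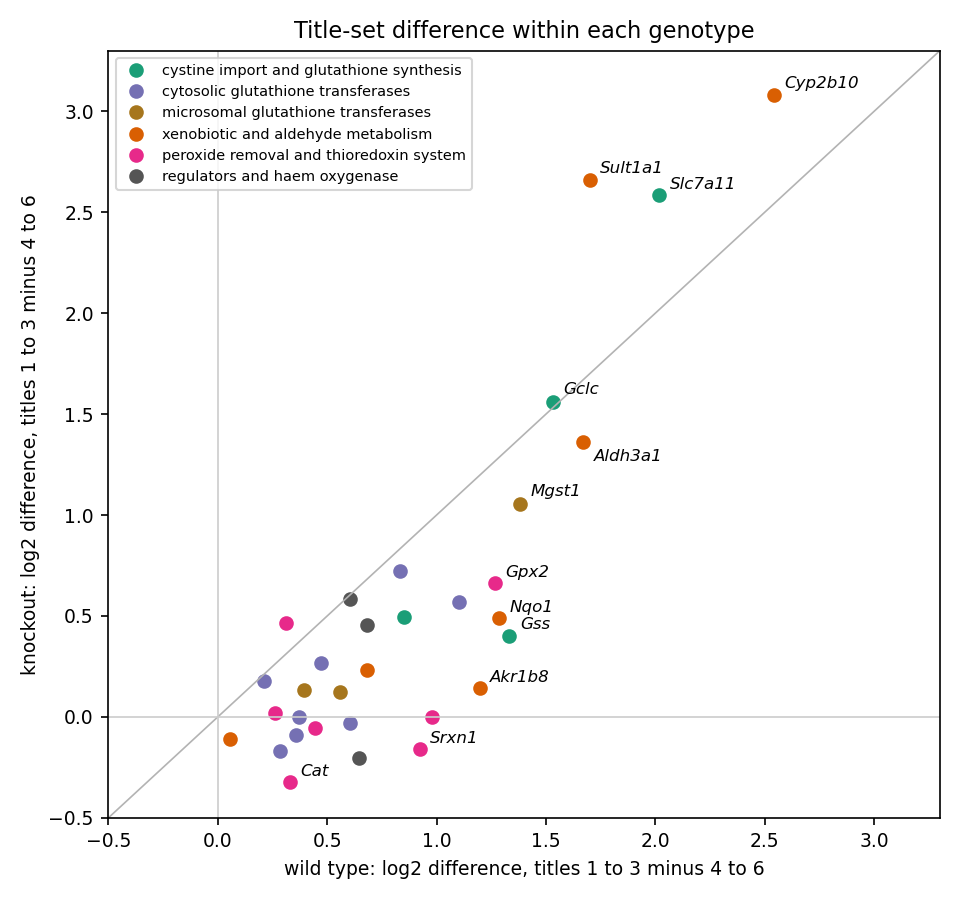
Title-set difference of each of the 32 genes within wild type (horizontal, wild type replicates 1 and 2 minus 3) and within knockout (vertical, knockout replicate 1 minus 2 and 3), in log2 units, coloured by role. The grey diagonal marks equal differences. Cyp2b10, Slc7a11, Sult1a1, Gclc, Aldh3a1 and Mgst1 lie above 1 on both axes, while genes such as Srxn1 and Cat lie above 0 in wild type only.

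All 32 genes were higher on the low-numbered arrays within wild type, with a median of 0.68, and 23 of 32 within knockout, with a median of 0.25. Over all kept probes these medians were 0.32 and 0.06. The wild type difference rests on wild type replicate 3, the array with the most pancreatic RNA, which was the lowest of the 6 arrays for 29 of the 32 genes and for 67.3% of all named genes. Without that array, the same 13 genes were higher without overlap, where 20.9% of named genes were. Gsta4, Gstp1, Cat and Nfe2l2 were lower without overlap, where 15.9% of named genes were, and the median difference was 0.25 in place of 0.47. Without wild type replicate 3 the difference is the one within knockout, of replicate 1 alone against replicates 2 and 3. Knockout replicate 1 is the array with the most squamous and smooth muscle RNA. The difference was then 3.08 for Cyp2b10, 2.59 for Slc7a11, 2.66 for Sult1a1, 1.56 for Gclc, 1.36 for Aldh3a1 and 1.06 for Mgst1. Without both arrays high in pancreatic transcripts it rests on knockout replicate 1, high in squamous transcripts, against knockout replicate 2. It was then at least 0.99 for each of these 6 genes, and the median of the list was 0.21. Without both arrays high in squamous transcripts it rests on wild type replicate 1 against wild type replicate 3, high in pancreatic transcripts. It was then at least 1.52 for each of the 6, and the median was 0.78. Without knockout replicate 1, which leaves the difference within wild type, the list median was 0.68. Without knockout replicate 2, 23 genes were higher without overlap, but so were 36.6% of named genes.

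The arrays low in both kinds of transcript were 1 of each set, wild type replicate 1 and knockout replicate 2, so set and genotype cannot be told apart between them. Their smooth muscle marker sums also differed, at 103079 and 60317. Wild type replicate 1 was higher for 20 of the 32 genes, by 0.15 at the median (0.06 over all kept probes). Cyp2b10 was higher there by 2.71, Sult1a1 by 2.45, Slc7a11 by 1.58, Aldh3a1 by 1.37, Gclc by 1.11 and Mgst1 by 0.87 on the log2 scale. Nqo1 was higher by 1.03, whereas Gpx2 (-0.19), Srxn1 (-0.26) and Nfe2l2 (-0.44) were lower. Removing the differences in brightness between arrays by quantile normalization kept 10 of the 13 genes without overlap. Akr1b8, Gstm2 and Keap1 were lost, Gss was added and Gstp1 and Cat then read lower without overlap, where 14.1% of named genes were higher and 15.6% lower. The list median was 0.27 after it, with all probes at -0.0046. Background correction before it gave 2.94 for Cyp2b10 and 2.27 for Slc7a11.

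**Figure D4:**
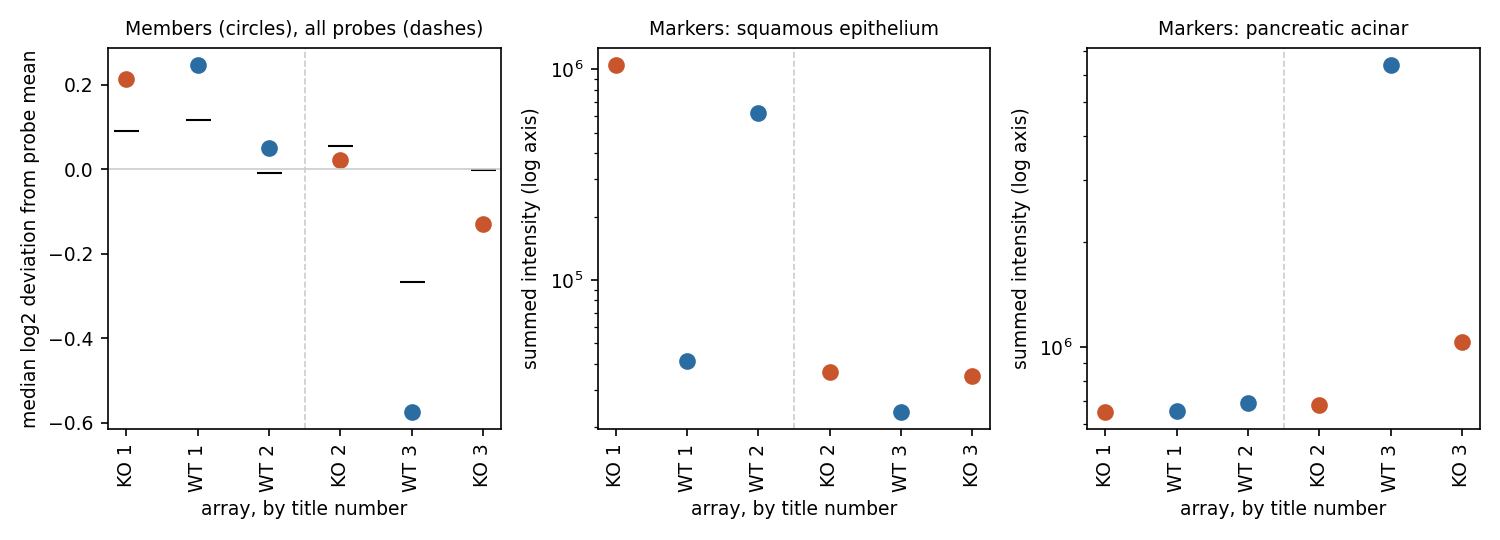
By array in title order (blue wild type, orange knockout): left, the median log2 deviation from the probe mean for the 32 genes (circles) and all kept probes (dashes); middle and right, summed intensity of squamous and pancreatic acinar markers on log axes. Wild type replicate 3 has the lowest median of these genes (-0.57) and the highest pancreatic sum, and the squamous sum is high on knockout replicate 1 and wild type replicate 2 only.

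Other genes of the same pathways, from a longer list of 101 with 83 kept, had a median difference of 0.29. Of these, 25 were higher on the low-numbered arrays without overlap and 4 lower, where 19.5% and 3.74% of named genes were. The largest were Ces1d, a carboxylesterase (1.43, SE 0.17), Gsto2, a transferase of the omega class (1.24, SE 0.33, with overlap), Ephx2, the soluble epoxide hydrolase (1.19, SE 0.16), Gpx3, the secreted glutathione peroxidase (1.13, SE 0.23) and Cyp2c55, a cytochrome P450 (1.10, SE 0.23). Ces1d read 18980, 13692 and 22092 on the low-numbered arrays and 6641, 7233 and 7590 on the high-numbered ones, with a wide gap. Ephx2 read 20980, 21433 and 22952 against 7959, 13364 and 10390, also without overlap. In the other direction were Chac1, an enzyme that degrades glutathione and is induced through ATF4 (-1.68, SE 0.44), and Prdx4, the peroxiredoxin of the secretory pathway (-0.83, SE 0.18). Chac1 read 15319, 5088 and 11700 against 39241, 21961 and 33394, without overlap. It was highest on wild type replicate 3 and knockout replicate 3, the arrays high in pancreatic transcripts. Between wild type replicate 1 and knockout replicate 2, low in both kinds of transcript, it differed by -0.52. The part of tissue content in its difference was not tested. Prdx4 read 50117, 43203 and 42400 against 104702, 58134 and 61415, highest on the array with the most pancreatic RNA. Gpx8 (-0.43), Cyp1b1 (-0.41) and Msrb1 (-0.38) followed on their brightest probes. For Gpx8, 2 dimmer probes differed by -0.69 and -0.81 with sets that did not overlap, while its brightest probe overlapped. For Msrb1 the brightest probe did not overlap, and its dimmer probe differed by 0.01 with overlap.

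Knockout was then compared with wild type within the sets, with limma and the title set in the model, over all 22640 kept probes. None of the 32 genes passed (Benjamini-Hochberg adjusted p under 0.05), where 0.0169% of named genes did. Lasp1, the deleted gene, did not pass either, with a difference of -1.23 on its brightest probe (limma adjusted p = 0.399). Failing this threshold therefore does not show that a gene was unchanged. At an unadjusted p under 0.05, 12 of the 32 were higher in the knockout, against 13.7% of named genes, and 0 were lower, against 0.758%. The median difference, knockout minus wild type, was 0.33 for the 32 genes, 0.20 for named genes and 0.17 for all kept probes. With only probes above the 0.75 quantile of mean intensity it was 0.32 for the 31 genes left and 0.26 for all such probes. Of the 32 genes, 31 were above 0 (Gstm2, -0.06, was the exception). After quantile normalization 23 were above 0, with a median of 0.11 (0.0014 over all probes) and none past the threshold. The count of 12 at an unadjusted p under 0.05 then became 4, where 3.06% of named genes were higher at that p. It was 1 with normexp background correction before quantile normalization (2.95%) and 3 with the replicate number in place of the title set (3.79%). Without the title set in the model none passed either (0.00843% of named genes did), none had an unadjusted p under 0.05 (2.17% did), and the median was 0.12.

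The 6 genes of smallest unadjusted p were Gclc, Gpx2, Mgst1, Keap1, Slc7a11 and Gpx1, each with a limma adjusted p = 0.399. Gclc differed by 0.56 (SE 0.12), at 0.57 within the low-numbered and 0.55 within the high-numbered arrays. Knockout replicate 1 read above both wild type arrays of its set, and knockout replicates 2 and 3 above wild type replicate 3. Gpx2 differed by 0.93 (SE 0.23), at 0.63 and 1.23 within the sets. Its levels overlapped between genotypes (18186 to 47802 in wild type and 33406 to 67539 in knockout). Gpx1, the ubiquitous peroxidase, gave 129810, 123188 and 93074 in the wild type arrays, by replicate number, and 142421, 155264 and 140776 in the knockout arrays. Every knockout array lay above every wild type array, as for 3 of the 32 genes, and the difference was 0.42 (SE 0.15). Gsta4 and Nfe2l2 were the others, all higher in the knockout, where 6.66% of named genes were. None was lower without overlap on its brightest probe, against 0.817%. Mgst1 differed by 0.42 (SE 0.14), Keap1 by 0.37 (SE 0.13) and Slc7a11 by 0.48 (SE 0.17). Gstm2 was the reverse on a dimmer probe, which read 26305 to 38183 in wild type and 20384 to 25698 in knockout mucosa, a difference of -0.42, while its brightest probe differed by -0.06.

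**Figure D5:**
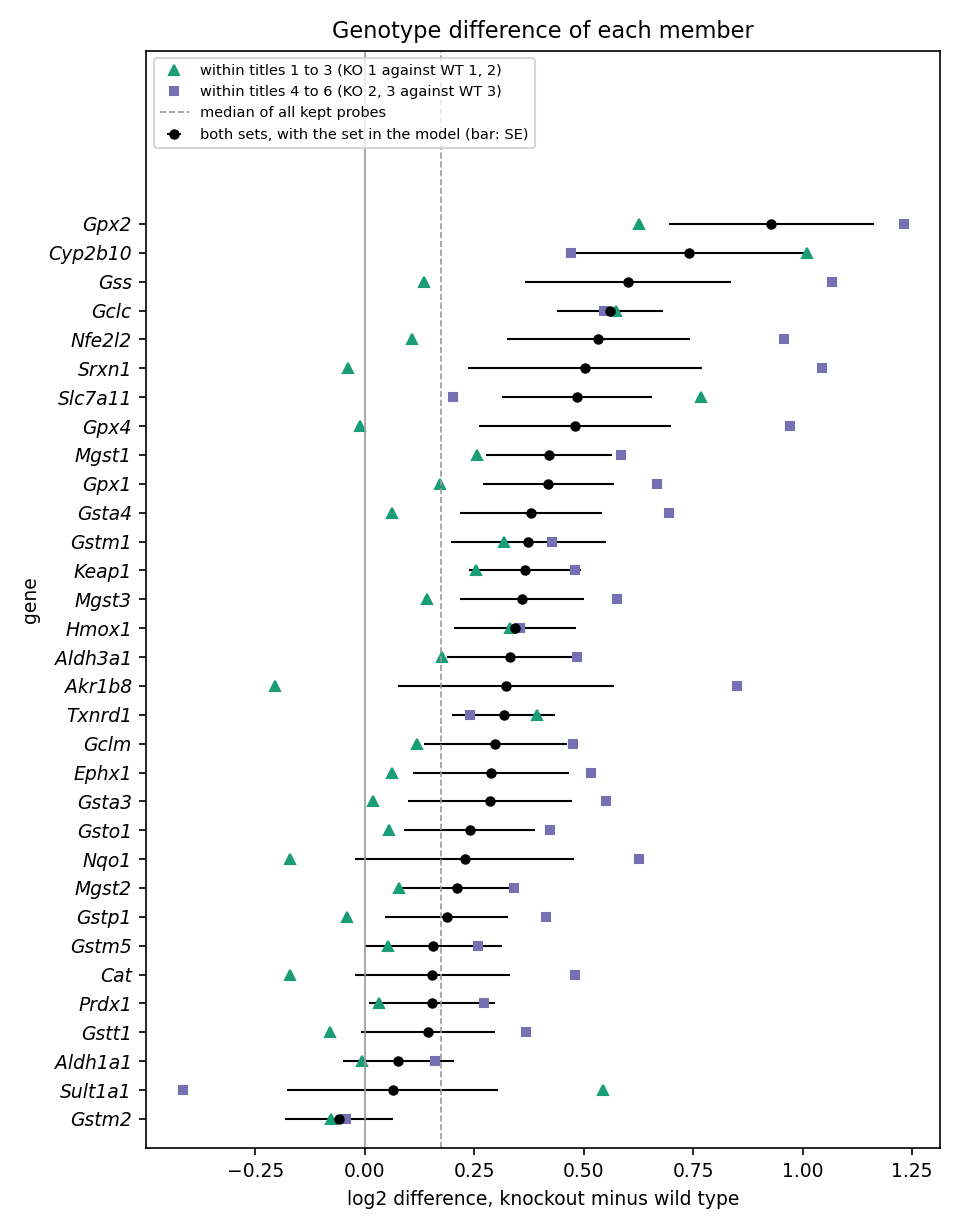
Genotype difference of each of the 32 genes, knockout minus wild type in log2 units: black circles with SE from the model with the title set, green triangles within titles 1 to 3 and purple squares within titles 4 to 6. The dashed line is the median of all kept probes (0.17). Purple squares lie to the right of green triangles for most genes, and the exceptions include Cyp2b10, Slc7a11 and Sult1a1.

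Within each set 1 of the genotypes is represented by a single array. Within the low-numbered arrays the median of the 32 genes was 0.09 (0.04 over all kept probes), and within the high-numbered arrays it was 0.48 (0.29 over all). The larger value sets knockout replicates 2 and 3 against wild type replicate 3 alone. Without that array the list median was 0.09 against 0.04 over all kept probes, and 23 of the 32 genes were above 0. None passed, where 0.0591% of named genes did, and 5 had an unadjusted p under 0.05, where 5.26% did. Gpx2 then differed by 0.63, Gpx1 by 0.17, Keap1 by 0.25 and Gclc by 0.57, against 0.56 for Gclc with every array. A Keap1 probe almost as bright differed by 0.25 with every array and by 0.0006 without wild type replicate 3. Without knockout replicate 1 the comparison rests on wild type replicate 3 against knockout replicates 2 and 3, and 8 of the 32 genes passed, all higher in the knockout, where 9.38% of named genes passed. Without both arrays high in squamous transcripts, which leaves the same contrast, 13 passed, all higher, where 24.4% of named genes passed. Over all probes 1908 and 4929 passed in these fits, against 3 with every array. For 9 of the 32 genes the genotype difference had opposite signs in the 2 sets, against 38.9% of named genes. No gene of the 32 passed the test of that change of difference (limma interaction, adjusted p under 0.05, which 0.708% of named genes passed), and 8 had an unadjusted p under 0.05, where 19.7% of named genes did. Of the 83 other pathway genes none passed for genotype with every array, where 0.0169% of named genes did. An unadjusted p under 0.05 was reached by 16, 15 of them higher, where 14.5% of named genes reached it, 13.7% being higher.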

How the data were processed

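Biotinylated cRNA from total RNA of 6 samples was read on Illumina arrays, per the labels' protocols. The deposited table holds 1 linear intensity per probe and array, which the authors had scaled to a median of 1000 on every array (seen from the values, with minima of 542 to 572, so the background had not been subtracted and folds of dim probes are understated). Scanner, software and genome build are not given in the labels.

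Probes were named from the platform annotation (34885 with 1 symbol, 18 with several, 10378 with none) and updated through the gene identifier. Intensities were floored at 16, log2 transformed and kept above the median probe (mean intensity above 991). Groups came from the titles. A gene is given by its brightest kept probe over all arrays, the same probe under each alternative. Genotype, title set and their interaction were fitted in R 4.3.3 by the two-sided test of limma 3.58.1 (lmFit, eBayes), with Benjamini-Hochberg adjustment over all 22640 kept probes. The fit was tested on simulated data. The number of arrays limits the precision. Values on every array are given for the 12 genes of largest title-set difference, the 6 of smallest genotype p and those with probes of opposite sign. Other pathway genes are named for their title-set difference. A few further genes were chosen after their values were seen. Members and lists were chosen with earlier results of these data known. Alternatives were quantile normalization, normexp (offset 50), other filters, probe means, other model terms and leaving out arrays. The comparison of wild type replicate 1 with knockout replicate 2 and the plain difference of set means were chosen after seeing the data. Figures used matplotlib 3.10.9 in Python 3.11.15.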

Additional observations from a re-analysis of the deposited data

Results flagged for a closer look

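Abcc3, a transporter that exports glutathione and glucuronide conjugates, was the only gene of the 2 lists to pass the limma interaction test of genotype with title set. The log2 change was -1.58 in the low-numbered relative to the high-numbered arrays (limma adjusted p = 0.0368). It was thus 1 of the 83 other pathway genes and 0 of the 32 listed genes, where 0.708% of named genes passed. At an unadjusted p under 0.05 there were 18 of the 83 and 8 of the 32, where 19.7% of named genes were. Wild type replicates 1 to 3 gave 91523, 82857 and 28521, and knockout replicates 1 to 3 gave 91271, 92875 and 86068. The array that stands apart is wild type replicate 3, the single wild type array among the high-numbered ones and the one with the most pancreatic RNA. Its part in this value was not tested.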

How the results depend on the processing

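The count of 13 genes higher on the low-numbered arrays without overlap was 11 to 19 under the other settings with every array or without a pair of arrays. Of named genes 13.1% to 50% were higher under these settings. The count was 13 to 23 on leaving out each array, where 20.9% to 37.8% of named genes were higher without overlap. The single-array comparison gave 20 genes higher, with a median of 0.15. The median difference of 0.47 became 0.27 after quantile normalization, 0.27 with normexp, 0.78 without both squamous arrays and 0.21 without both pancreatic arrays, and 0.25 to 0.68 on leaving out each array. For genotype, 0 genes passed except that 13 passed without both squamous arrays, and 0 to 8 did on leaving out each array. The genotype median of 0.33 became 0.12 without the title set, 0.12 with a replicate block, 0.11 after quantile normalization, 0.11 with normexp, 0.093 without both pancreatic arrays, and 0.093 to 0.48 on leaving out each array. For the interaction 0 to 1 genes passed on leaving out each array. It could not be fitted without wild type replicate 3, without knockout replicate 1, or without either pair of arrays. Of 90 alternative genotype values of the 6 genes of smallest p, 2 changed sign, both of Slc7a11 (-0.28 without the title set and -0.28 with the replicate block). A further 6 passed the threshold, all in the fits that leave wild type replicate 3 as the only wild type array of a contrast. The range of adjusted p for Gclc was 0.0413 to 0.997. A gene kept its probe under every setting here. When the brightest probe was chosen again within each setting, an alternative added after seeing the data, only Keap1 changed probe, and in 7 settings. Its genotype difference on that probe was -0.034 after quantile normalization and -0.036 with normexp. With it the title-set median was 0.28 after quantile normalization, 0.96 without both squamous arrays and 0.25 to 0.76 on leaving out each array. With it the genotype median was 0.11 after quantile normalization, 0.11 with normexp and 0.071 to 0.48 on leaving out each array, and 14 genes passed for genotype without both squamous arrays.

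For the other pathway genes, 26 passed for genotype without both squamous arrays, where 24.4% of named genes did. On leaving out each array 0 to 10 passed, where 0 to 9.38% of named genes did. Their median title-set difference of 0.29 became 0.093 after quantile normalization, 0.091 with normexp, 0.60 without both squamous arrays, 0.082 without both pancreatic arrays, and 0.14 to 0.47 on leaving out each array. Their count of 25 without overlap became 50 without both squamous arrays, where 50% of named genes were higher without overlap. It was 24 to 42 on leaving out each array, where 20.9% to 37.8% of named genes were. The cause of the changes with normalization was not tested. Same-numbered arrays had correlations of their deviations of 0.04, -0.30 and 0.53, the last between the 2 arrays high in pancreatic transcripts. The 2 arrays high in squamous transcripts, of different replicate number, had 0.55. Because arrays alike in tissue content also correlated, these values cannot tell whether the replicate numbers pair the samples. No gene on the list passed for genotype with the title set or with the block. Background near the array median limits what dim probes can show.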
